A study of Rattus norvegicus with 12 samples.

Results

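The 10 transcripts described here encode interleukin-1 (IL-1) family ligands (Il1b, Il18 and Il33), IL-1 receptor family proteins (Il1r1, Il1rap, Il1rl1 and Il1rl2) and the parts of an inflammasome (Nlrp3, Pycard and Casp1), and they were 10 of the 17494 genes listed in the hippocampal RNA counts. They were picked by gene name from a family in which Il1rl2 had drawn attention, because Il1rl2 was among the genes with the smallest unadjusted p between the diets. The values of Il1rl2 between the diets are therefore given as a description, without a test.

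All 12 animals were male wild-type Long Evans hooded rats that received 3 blasts at 10 weeks of age, 1 per day, and were sacrificed 29 weeks after blast. Boldine, an alkaloid of the boldo tree, was given to 6 of them in chow at 500 mg/kg from the second week after blast until sacrifice (blast-boldine), and the other 6 ate the same chow without it (blast-controls). RNA of rats that were not exposed to blast was not analysed here, so that each comparison is between diets in blast-exposed rats. The tissue is brain in the labels and hippocampus in the study's methods, and each rat gave 1 library.

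IL-1 family cytokines are alarm signals of innate immunity. IL-1β and IL-18 are made as inactive precursors that caspase-1 cleaves inside an inflammasome, a complex in which the sensor NLRP3 recruits the adaptor ASC (Pycard) and ASC recruits caspase-1. IL-33 is kept in the nucleus and is released by damaged cells, and in brain it is made mainly by astrocytes and oligodendrocytes. The receptors work in pairs, in which IL-1R1 (Il1r1) for IL-1, ST2 (Il1rl1) for IL-33 and the IL-36 receptor (Il1rl2) each join the shared accessory chain IL-1RAcP (Il1rap) and signal through MyD88 to NF-κB. In brain, microglia are a main source of IL-1β.

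In the mRatBN7.2 annotation of RefSeq, 3 of the receptor genes lie side by side on the plus strand of chromosome 9, Il1r1 from 42540359 to 42578094, Il1rl2 from 42591934 to 42636667 and Il1rl1 from 42676675 to 42724735. Il1rap lies on chromosome 11 from 74070304 to 74199521, Il1b on chromosome 3 from 116577008 to 116583386, and Il18 on chromosome 8 from 50926271 to 50932885. Il33 lies on chromosome 1 from 227721435 to 227736374, Nlrp3 on chromosome 10 from 44328566 to 44352811, Pycard on chromosome 1 from 182601740 to 182602773, and Casp1 on chromosome 8 from 2588506 to 2597395. The counts are reads on the exons of each gene, and none of the 10 genes shared exon bases with another gene on either strand.

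The 250 bases before the transcription start are shown for the genes with the highest level per length (Il1rap) and the lowest (Il1b), and for Il1rl2, since these differ in the density of CpG dinucleotides. The sequences are those of RefSeq on the GRCr8 assembly, another build than that of the counts. They are written 5′ to 3′ on the strand of the gene with each CpG in capitals. The windows are chr11:87704343-87704592 on the minus strand for Il1rap, chr9:50087302-50087551 on the plus strand for Il1rl2 and chr3:137036582-137036831 on the minus strand for Il1b.
Il1rap: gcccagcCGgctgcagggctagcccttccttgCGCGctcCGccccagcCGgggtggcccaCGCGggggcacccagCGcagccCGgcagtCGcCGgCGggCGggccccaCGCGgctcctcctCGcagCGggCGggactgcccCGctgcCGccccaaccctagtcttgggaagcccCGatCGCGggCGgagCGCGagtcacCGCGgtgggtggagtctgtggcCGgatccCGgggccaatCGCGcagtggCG
Il1rl2: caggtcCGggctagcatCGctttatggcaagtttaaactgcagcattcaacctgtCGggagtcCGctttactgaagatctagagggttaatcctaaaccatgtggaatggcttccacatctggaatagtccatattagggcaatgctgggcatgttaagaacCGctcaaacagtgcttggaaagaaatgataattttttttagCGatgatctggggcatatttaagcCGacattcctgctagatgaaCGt
Il1b: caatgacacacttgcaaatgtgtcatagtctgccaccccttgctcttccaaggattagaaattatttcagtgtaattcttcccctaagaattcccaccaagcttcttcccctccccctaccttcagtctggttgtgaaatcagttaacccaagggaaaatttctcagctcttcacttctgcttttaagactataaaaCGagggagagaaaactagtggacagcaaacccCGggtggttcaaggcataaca
The Il1rap window held 33 CpG, more than 96.4% of the 33469 windows of this length held. That of Il1rl2 held 8 and that of Il1b held 2, beside a median of 5 over all windows. The windows of Il33, next to Il1rap in level per length, held 3 and 2 CpG. Those of Pycard and Il1r1 held 8 each, that of Il18 held 4, that of Nlrp3 held 3, and those of Casp1 and Il1rl1 held 2 each. The number of CpG thus did not follow the order of levels over the 10 genes. All 10 genes matched, with 12 windows between them. An NF-κB (kappa-B) motif, searched on both strands, was found before Il1r1 and Il1rap, that is for 2 of the 10 genes, and in 3.54% of all windows. The letters TATAAA, on either strand, were found for 3 of the 10, namely Il1b, Il1rl1 and 1 of the windows of Il33, and in 12.9% of all windows. The members are counted here as genes and the rest as windows, 33469 of them for 27457 genes, so that the shares are not in the same unit. These are matches of letters and no factor was measured at them.

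Depth set what could be seen of these genes. Of the 12 libraries 11 held between 10148474 and 40850106 counts, and that of blast-control rat 6 held 74008. CPM are edgeR's counts scaled to a common library size, with TMM normalization between libraries. A total of 3 counts, taken as the least detected value, corresponded to 0.0658 to 0.307 CPM in the 11 libraries and to 47.5 CPM in rat 6, counting error alone considered. Each of the library suffixes S1 to S6 was used on 2 libraries, and the labels name no batch. With each suffix once per set and rat numbers rising with the suffix, 4 divisions into sets of 6 were possible. The one that accounted for most of the first principal component was used, so that the sets were inferred from these data. It put rats 1, 7, 9, 20, 32 and 35 in library set A and the other rats in library set B. This division accounted for 95.4% of that component, the value it was chosen on, and treatment accounted for 1.58%. The component held 77.3% of the variance of 11516 genes in 11 libraries. Markers of hippocampal neurons (Prox1, C1ql2, Wfs1, Fibcd1, Grik4, Rgs14, Zbtb20 and Spink8) passed the filter on low counts for 7 of 8 genes, with summed levels of 1168 to 1699 CPM in the 11 rats, and Spink8 was under 3 counts in each of them.

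Rat 6 held 7 counts of Il1rap, 3 of Nlrp3, 1 of Il33 and 0 of the other 7 genes. At the mean level of the other blast-controls its depth would give 4.6 counts of Il1rap, 2.7 of Il33, 0.386 of Nlrp3 and at most 0.175 of any other member, so that its 0 counts do not show that a transcript was absent. The 3 counts of Nlrp3 correspond to 47.5 CPM (exact Poisson 95% interval 9.80 to 139), above the 3.67 to 8.82 CPM of the other 11 rats. Values below are therefore given for the 11 other rats first, and with rat 6 where it enters a test.

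Per kilobase of exon, the shared chain Il1rap had the highest level in the 11 rats, 22.4 ± 2.68 CPM per kb (SD, n = 11), followed by the ligand Il33 at 16.8 ± 7.35 (SD, n = 11). The adaptor Pycard measured 4.63 ± 1.11 CPM per kb (SD, n = 11) and Il18 4.08 ± 0.790 (SD, n = 11). Casp1, Il1r1 and Nlrp3 lay close together, at 1.76 ± 0.495, 1.67 ± 0.575 and 1.56 ± 0.447 CPM per kb (SD, n = 11). The receptors Il1rl1 and Il1rl2 measured 0.486 ± 0.116 and 0.325 ± 0.192 CPM per kb (SD, n = 11), and Il1b was lowest at 0.194 ± 0.115 (SD, n = 11). In this order the ranges over rats overlapped between all neighbours except Il33 and Pycard, and Nlrp3 and Il1rl1. The accessory chain was thus measured at a higher level per length than each of the 3 receptors that join it, in every one of the 11 rats.

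**Figure D1:**
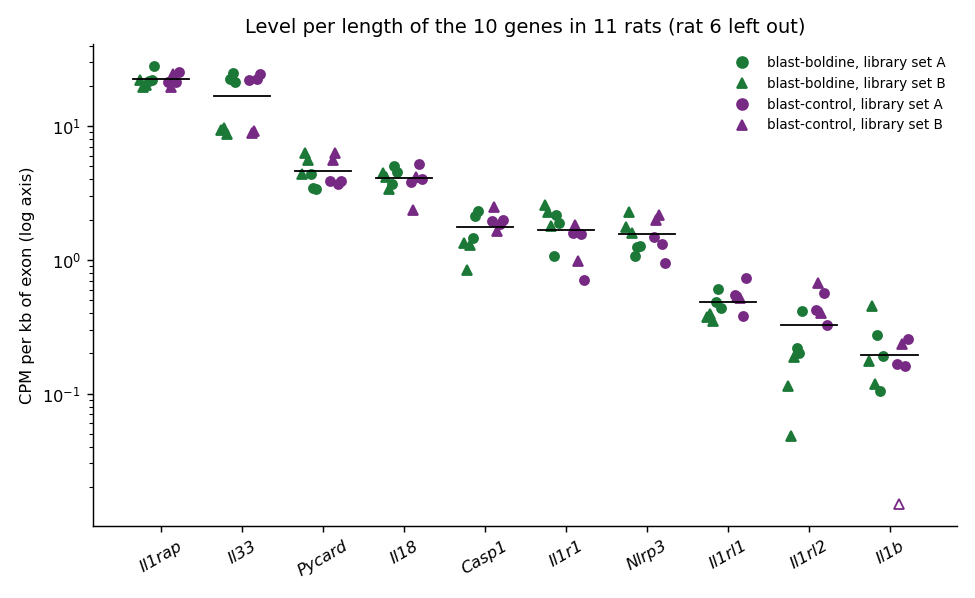
Level of each gene in CPM per kb of exon (log axis) in 11 rats, by diet (colour) and library set (circles for set A, triangles for set B), with a line at the mean. Il1rap and Il33 lie at the top and Il1b at the foot, the open triangle marks a blast-control rat with 0 counts of Il1b, and Il33 falls into separate groups of circles and triangles.

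Differences between diets were tested on all genes with edgeR's quasi-likelihood test. Of the 12325 genes that passed the filter on low counts in 12 rats, 0 (0%) had an adjusted p under 0.05, and 1.07% had an unadjusted p under 0.05. Without rat 6 these shares were 0% and 1.4% of 12529 genes, and with the library set as a covariate and without rat 6 they were 0% and 5.35%. Of the 10 members 9 passed the filter, in 12 rats and without rat 6, and Il1b did not. With all 12 rats, 7 of the 9 had a log2 fold change below 0 and 2 above it, with a median of -0.07, beside a median of 0.00 over all genes tested. Genes lower in blast-boldine rats made up 50.3% of all genes tested without rat 6, where 7 of the 9 members were again lower. With the library set as a covariate and without rat 6, 6 were lower and 3 higher. Il1rl2, which was picked on this contrast, is among the lower genes in each of these tallies, so that they are a description. None of the 9 members reached an adjusted p under 0.05, with 12 rats, without rat 6 or with the library set as a covariate. Genes whose values did not overlap between the diets made up 0.152% of those tested in 11 rats, and the values of each of the 10 members overlapped.

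Among the ligands, Il1b was close to the detection limit in every rat. Blast-boldine rats had 2 to 8 counts with a median of 4.5, and blast-controls had 10 counts in rat 1, 0 in rat 4, 3 in rat 5, 4 in rat 7 and 4 in rat 9. Summed over the 6 blast-boldine rats, 28 counts gave 0.274 CPM without TMM (exact Poisson 95% interval 0.182 to 0.395). Summed over the 5 blast-controls, 21 counts gave 0.230 CPM without TMM (0.142 to 0.352). The intervals overlapped, and they cover counting error only. In an exact two-sided permutation test of mean log2 CPM over these 11 rats, p was 0.468 (6 against 5 rats).

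**Figure D2:**
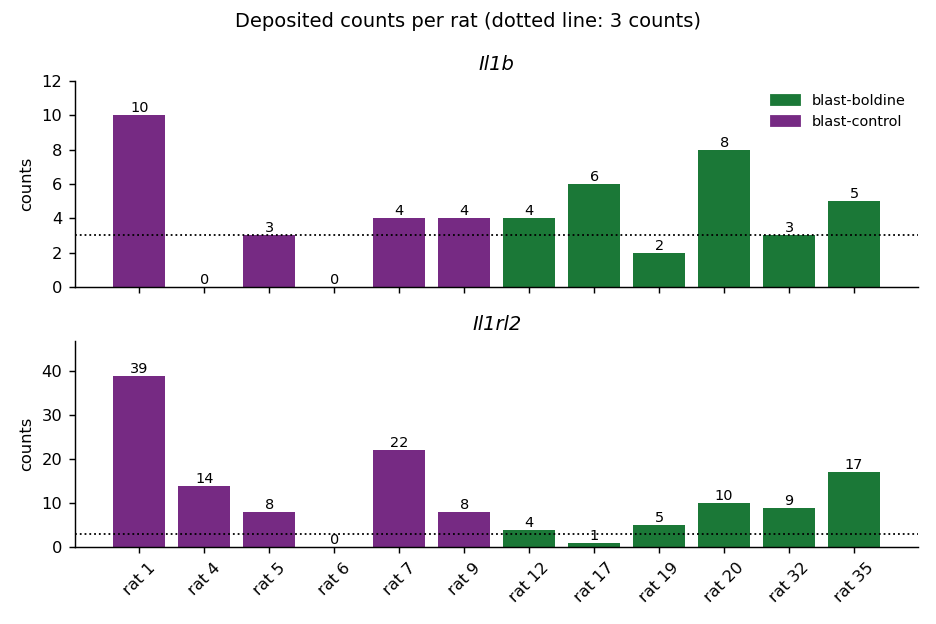
Deposited counts (vertical axis) of Il1b and Il1rl2 in each of the 12 rats, blast-controls in purple and blast-boldine rats in green, with a dotted line at 3 counts. Il1b stays at or below 10 counts in every rat, and Il1rl2 reaches 39 counts in blast-control rat 1, the deepest library.

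Il18, whose product is cleaved by caspase-1, was measured at 2.38, 3.08 and 3.58 CPM (lowest, median and highest) in the 6 blast-boldine rats. Blast-controls had 2.7 CPM in rat 1, 1.68 in rat 4, 2.97 in rat 5, 3.67 in rat 7 and 2.83 in rat 9. The values of the diets lay across the same range. Its log2 fold change was 0.10 without rat 6 (SE 0.20, 95% interval of the fold 0.792 to 1.45) and the test gave an adjusted p of 1.0 (edgeR, Benjamini-Hochberg).

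Il33, the nuclear alarmin, was the ligand with the highest level and the widest spread. The 6 blast-boldine rats had 21.4, 38.2 and 61.6 CPM as the lowest, median and highest values. Blast-controls had 53.8 CPM in rat 1, 21.6 in rat 4, 22.6 in rat 5, 55.1 in rat 7 and 60.3 in rat 9. Within each diet the rats fell into a high and a low group with nothing between, and these groups were library sets A and B. When the library set was added to the model and rat 6 was left out, the log2 fold change between diets came to 0.01 (SE 0.071, edgeR adjusted p = 0.992), with a 95% interval of the fold from 0.906 to 1.12. Without the covariate the interval was wider, from 0.516 to 1.65.

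Among the receptors, Il1r1, which binds IL-1, had 1.89, 3.57 and 4.56 CPM as the lowest, median and highest values in blast-boldine rats. Blast-controls had 2.81 CPM in rat 1, 3.26 in rat 4, 1.74 in rat 5, 2.78 in rat 7 and 1.25 in rat 9. Among blast-boldine rats 4 exceeded all 5 of these blast-controls, and rat 20 lay below 3 of them The log2 fold change was 0.53 without rat 6 (SE 0.28, 95% interval of the fold 0.940 to 2.22, edgeR adjusted p = 1.0). It was the largest difference upwards among the 9 members and, like every gene tested, did not have an adjusted p under 0.05. The exact permutation p was 0.0996 in these 11 rats and 0.0498 in all 12 rats, so that the smaller value came with rat 6, which held 0 counts of Il1r1.

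The accessory chain Il1rap had 63.2, 70.7 and 91.4 CPM as the lowest, median and highest values in blast-boldine rats. Blast-controls had 69.5 CPM in rat 1, 63.3 in rat 4, 79.4 in rat 5, 69.6 in rat 7 and 82.5 in rat 9. The groups overlapped over nearly their whole range. When the library set was added to the model and rat 6 was left out, the log2 fold change came to 0.00 (SE 0.095, edgeR adjusted p = 0.998), and the 95% interval of the fold ran from 0.864 to 1.15.

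Il1rl1 encodes ST2, the receptor for IL-33. Blast-boldine rats had 1.23, 1.46 and 2.16 CPM as the lowest, median and highest values, and blast-controls had 1.93 CPM in rat 1, 1.88 in rat 4, 1.84 in rat 5, 1.36 in rat 7 and 2.58 in rat 9. Of the blast-boldine rats 5 of 6 lay below the median of these blast-controls and 2 lay below all of them. The log2 fold change of -0.28 without rat 6 (SE 0.21, 95% interval of the fold 0.599 to 1.13) did not pass the test (edgeR adjusted p = 1.0, exact permutation p = 0.154).

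Il1rl2, the receptor subunit for IL-36 cytokines, was counted 4 times in rat 12, 1 time in rat 17, 5 times in rat 19, 10 times in rat 20, 9 times in rat 32 and 17 times in rat 35, all blast-boldine. Blast-controls had 39 counts in rat 1, 14 in rat 4, 8 in rat 5, 22 in rat 7 and 8 in rat 9. In CPM the blast-boldine rats had 0.0991, 0.399 and 0.845 as the lowest, median and highest values, and the blast-controls had 0.856 in rat 1, 1.38 in rat 4, 0.819 in rat 5, 1.15 in rat 7 and 0.667 in rat 9. Of the 6 blast-boldine rats 5 lay below every one of these blast-controls, and rat 35 lay above 2 of them. Summed, 46 counts in blast-boldine rats gave 0.449 CPM without TMM, and 91 counts in the 5 blast-controls gave 0.997. Rat 1 held 39 of these 91 counts, and without it 52 counts gave 1.03 CPM without TMM. The log2 fold change was -1.19 without rat 6 and -1.17 in 12 rats. This is the contrast for which Il1rl2 was singled out, so that the values describe it and carry no test. A lower level in such RNA can be fewer cells that make the transcript or less of it per cell, which cannot be told apart in tissue RNA.

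In the inflammasome, the sensor Nlrp3 had 4.10, 5.51 and 8.82 CPM as the lowest, median and highest values in blast-boldine rats. Blast-controls had 5.75 CPM in rat 1, 7.70 in rat 4, 8.39 in rat 5, 5.08 in rat 7 and 3.67 in rat 9. The ranges of the diets nearly coincided. When the library set was added to the model and rat 6 was left out, the log2 fold change came to -0.13 (SE 0.14, 95% interval of the fold 0.738 to 1.13, edgeR adjusted p = 0.926). With rat 6 kept, the blast-control mean rose from 6.12 ± 1.93 CPM (SD, n = 5) to 13 ± 17 CPM (SD, n = 6) on 3 counts.

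Pycard, which encodes the adaptor ASC, had 1.99, 2.56 and 3.67 CPM as the lowest, median and highest values in blast-boldine rats. Blast-controls had 2.28 CPM in rat 1, 3.26 in rat 4, 3.68 in rat 5, 2.15 in rat 7 and 2.25 in rat 9. The means were 2.67 ± 0.667 CPM (SD, n = 6) and 2.72 ± 0.700 CPM (SD, n = 5), closer together than the spread within either diet.

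Casp1 encodes caspase-1, the protease of the complex. Blast-boldine rats had 1.09, 1.81 and 3.03 CPM as the lowest, median and highest values, and blast-controls had 2.54 CPM in rat 1, 3.26 in rat 4, 2.15 in rat 5, 2.41 in rat 7 and 2.58 in rat 9. Of the blast-boldine rats 4 of 6 lay below every one of these blast-controls, and rats 32 and 35 lay above all but rat 4. The log2 fold change of -0.33 without rat 6 (SE 0.24, 95% interval of the fold 0.548 to 1.15) did not pass the test (edgeR adjusted p = 1.0, exact permutation p = 0.143).

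**Figure D3:**
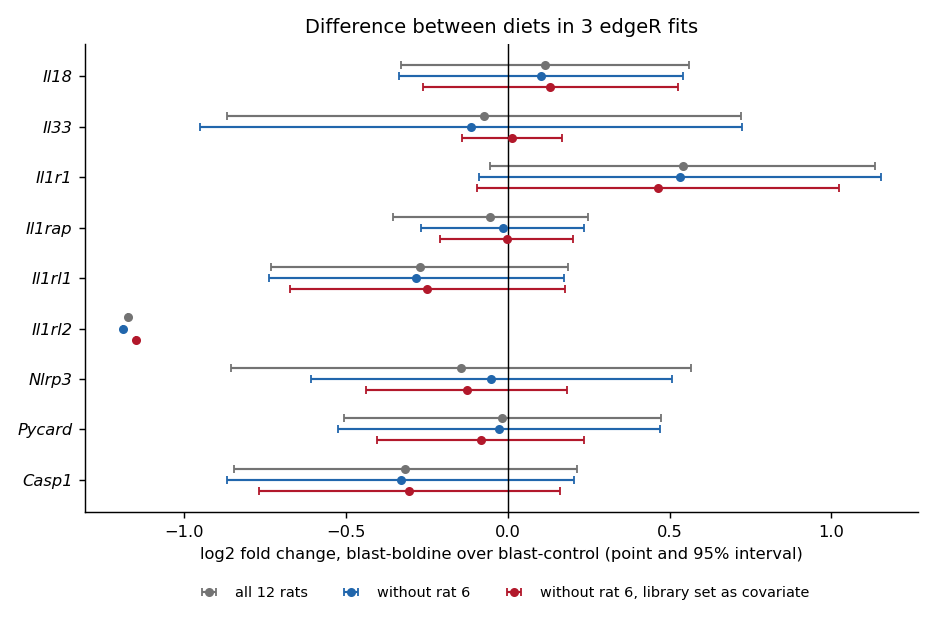
Log2 fold change of blast-boldine over blast-control rats (horizontal axis) for the 9 genes that passed the filter, in fits with all 12 rats (grey), without rat 6 (blue) and without rat 6 with the library set as a covariate (red), with bars for the 95% interval. The intervals of 8 genes cross 0, that of Il33 narrows with the covariate, and Il1rl2 is drawn as points alone because it was singled out on this contrast.

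Of the 9 genes tested, Il33 and Nlrp3 were divided by library set. Il33 had 56.5 ± 3.61 CPM (SD, n = 6) in set A and 22.4 ± 0.947 CPM (SD, n = 5) in set B, a ratio of 2.52. Nlrp3 went the other way, with 4.71 ± 0.736 CPM (SD, n = 6) in set A and 7.56 ± 1.11 CPM (SD, n = 5) in set B, a ratio of 0.623. For both genes the sets did not overlap. The sets did not overlap for 48.6% of all genes tested, and set A was the higher for 23.9% of all. By this measure 2 of the 9 members were set apart, and the other 7 overlapped. The difference of Il33 was equalled or passed upwards in set A by 2.93% of the genes. The sets were chosen on expression in these same libraries, so that these values are a description.

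Marker genes of some cell types moved with the library sets too. Summed levels of 12 microglial markers ran from 766 to 884 CPM in set A and from 394 to 574 CPM in set B, and 11 of the 12 genes were higher in set A. Those of 8 oligodendrocyte markers ran from 4430 to 7776 CPM in set A and from 3228 to 5626 CPM in set B, and those of 6 astrocyte markers from 4265 to 5313 CPM and from 3734 to 5101 CPM. The 8 oligodendrocyte and 6 astrocyte genes were all higher in set A, but their sums overlapped between the sets. Endothelial markers went the other way, with 81.1 to 121 CPM in set A and 215 to 291 CPM in set B, and 0 of 6 genes were higher in set A. Neuronal markers had sums of 2586 to 4055 CPM in set A and 3390 to 4073 CPM in set B, and 3 of 6 were higher in set A. Sums of hippocampal neuron, leukocyte, choroid plexus and meningeal fibroblast markers overlapped between the sets. The part of these cell types in the levels of Il33 and Nlrp3 was not tested. In the 11 rats set A held 3 rats of each diet, and set B held 3 blast-boldine rats and 2 blast-controls. The marker values between diets that follow were not adjusted for this, and the part of the library sets in them was not tested. Between the diets the microglial sums ran from 394 to 884 CPM in blast-boldine rats and from 410 to 849 CPM in the 5 blast-controls. By log2 fold change without rat 6, 1 of the 12 genes was higher in blast-boldine rats (median -0.17). Of the oligodendrocyte markers 1 of 8 was higher, and of the astrocyte markers 0 of 6. Of the neuronal markers 4 of 6 were higher, and of the hippocampal neuron markers that passed the filter 3 of 7. Of the 6 blood leukocyte markers 1 passed the filter and was not higher, with summed levels of the 6 of 3.93 to 9.55 CPM in blast-boldine rats and 5.92 to 9.41 CPM in blast-controls. All 6 endothelial markers were higher in blast-boldine rats (median 0.28), with sums of 81.1 to 291 CPM beside 82.4 to 279 CPM in blast-controls. Choroid plexus markers were higher for 5 of 6 genes, with sums of 8.84 to 1219 CPM and 13.3 to 1194 CPM, and meningeal fibroblast markers for 5 of 6, with sums of 42.2 to 101 CPM and 32.8 to 75.2 CPM. The sums overlapped between the diets for each of these cell types. Of all these markers 2, both of meningeal fibroblasts, had an unadjusted p under 0.05 and 0 had an adjusted p under 0.05 in edgeR without rat 6. The part of these markers in the values of Il1r1, Il1rl1, Il1rl2 and Casp1 between diets was not tested.

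**Figure D4:**
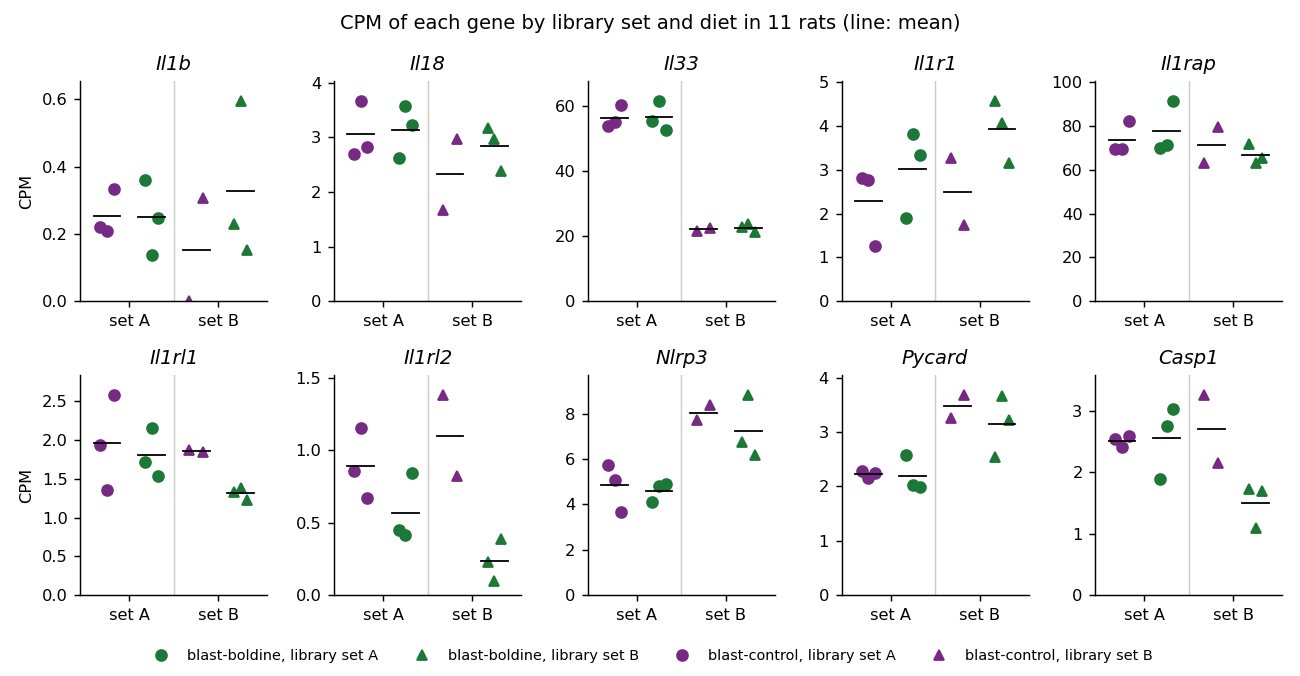
CPM of each gene (vertical axes, each from 0) in the 11 rats other than rat 6, by library set and diet, with a line at the mean of each group of 2 or 3 rats. Il33 and Nlrp3 separate by set, and Il1rl2 and Casp1 of blast-boldine rats lie lowest in set B.

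Within the sets, with 3 rats per diet in set A and with 3 blast-boldine and 2 blast-control rats in set B, the differences between diets were as follows. Il1rl2 was lower in blast-boldine rats in both sets, by 0.58 on the log2 scale in set A (0.570 against 0.891 CPM) and by 1.81 in set B (0.238 against 1.1 CPM). Casp1 measured 2.56 CPM in blast-boldine rats and 2.51 CPM in blast-controls of set A, a log2 difference of 0.00, and 1.51 against 2.7 CPM in set B, a log2 difference of -0.79. Il1r1 was higher in blast-boldine rats by 0.41 in set A and by 0.68 in set B, and Il33 differed by 0.00 and 0.03. The difference between sets was tested by an interaction term in edgeR, which called 0% of the 12529 genes at an adjusted p under 0.05, and 707 had an unadjusted p under 0.05. For Casp1 it gave an edgeR adjusted p of 0.881 (unadjusted p = 0.0573), so that a difference between the sets was not shown for this gene. No test is given for Il1rl2, because it was picked on the contrast between diets. In set B its values rested on 4, 1 and 5 counts in blast-boldine rats and on 14 and 8 counts in blast-controls.

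After the mean of each library set was removed, the genes varied largely apart from each other over the 11 rats. Over the 36 pairs of the 9 members the Pearson r of log2 CPM ran from -0.59 to 0.84 with a median of -0.02. The highest r was that of Il1rl2 and Casp1, at 0.84. The means of the diets were left in, so that these r include differences between diets. Il1rl2 was picked on such a difference, and Casp1 was also lower in blast-boldine rats by log2 fold change. Among 12528 other genes, the pattern nearest to that of Il1rl2 was of Mb21d2 (r = 0.97) and then Dennd6b (r = 0.94), and nearest to Casp1 were Pheta1 (r = 0.96) and Prcc (r = 0.96). Nearest to Il1r1 were Fmod (r = 0.94) and Fbxl20 (r = 0.94), and nearest to Nlrp3 were Vasp (r = 0.95) and Prdm9 (r = 0.91). Nearest to Il33 were Ficd (r = 0.92) and Tgoln2 (r = 0.89), but before the set means were removed the r of Il33 was -0.50 with Ficd and 0.98 with Tgoln2. These values describe 11 libraries that share depth and preparation, each is the highest of 12528 compared, and no test was made of them.

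Other genes of the pathway were read from lists. Of the other ligands, antagonists and receptors of the family, 5 of the 13 listed in the counts passed the filter, with 3 higher and 2 lower in blast-boldine rats and 0 with an unadjusted or adjusted p under 0.05 in edgeR. The IL-36 ligands Il36a and Il36g, the IL-36 antagonist Il36rn and Il1f10 had 0 counts in all 12 rats, and 3 counts in all libraries together would be 0.0155 CPM. The ligands of the receptor that Il1rl2 encodes were thus at or below this limit, except for Il36b with 4 counts in all, a gene named after its values were seen. The highest levels per length on the list were those of Il1rapl1, a synaptic relative of the accessory chain, at 13.6 CPM per kb, and Il18bp, the soluble IL-18 inhibitor, at 4.71. Il18rap was not analysed here.

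Of the genes that carry the signal below the receptors 19 of 20 were tested, 10 higher and 9 lower. Highest per length were Irak1, a kinase of the receptor complex, at 41.4 CPM per kb, and Tollip, its inhibitor, at 35.5, and the lowest tested was Nfkbiz, at 1.08, named after its values were seen. Other inflammasome and pyroptosis genes gave 12 tested of 15 listed in the counts, 9 higher and 3 lower, led per length by the NLRP3 partner Nek7 at 71.8 CPM per kb and Txnip at 28.0. Genes known to be induced by IL-1 gave 6 tested of 15, 3 higher and 3 lower. The highest were Ptgs2, an enzyme of prostaglandin synthesis, at 25.5 CPM per kb and the adhesion molecule Vcam1 at 21.0, and Csf2 had 0 counts in all 12 rats. In these 3 lists 0 genes had an unadjusted p under 0.05 in edgeR with 12 rats, beside the 1.07% of all genes. Their median log2 fold changes were 0.01, 0.13 and -0.02, beside 0.00 over all genes. Tab3, Nlrp1b, Naip6, Aim2 and Tnfaip3 were not analysed here.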

How the data were processed

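RNA from 12 rats was sequenced as stranded total RNA libraries depleted of ribosomal RNA. The authors used HTStream to remove duplicates and trim, STAR 2.7.11b for alignment to mRatBN7.2 with several alignments allowed per read, and featureCounts of Subread 2.0.1 to count reads on exons by strand. The deposited table holds raw counts per gene with no normalization. From them, CPM were computed and all genes tested with edgeR 4.0.16 in R 4.3.3 (TMM, filterByExpr with a minimum of 10 counts, treatment as the term, all 12 rats, two-sided quasi-likelihood test, Benjamini-Hochberg adjustment at 0.05). Log2 CPM for permutation tests used a prior count of 2. The smallest p that the permutations of 11 rats allow is 0.00216, and p of permutations were not adjusted. SE are the log2 fold change divided by the root of its F statistic. Levels per length used RefSeq exon lengths. The members, lists and tests were chosen with earlier results of these data known. All 10 members are named. From each list come genes under an unadjusted p of 0.05, the 2 highest per length and those at 0. Alternatives were DESeq2 1.42.0, RLE factors, robust estimation, no filter, the library set as a covariate, a prior count of 0.5 and each rat left out. The interaction with library set was added after the data were seen. Methods were tested on simulated data.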

Additional observations from a re-analysis of the deposited data

Results flagged for a closer look

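Of 20 groups checked, 10 genes in each diet, 1 held a rat apart from the others by Dixon's test. Blast-control rat 6 is not counted here, although its 47.5 CPM of Nlrp3 lay above the 3.67 to 8.39 CPM of the other blast-controls. That value of rat 6 rests on 3 counts. In blast-boldine rats, Il1rap measured 91.4 CPM in rat 35, from 1838 counts, and between 63.2 and 71.9 CPM in the other 5. The gap to the nearest rat was 0.692 of the whole range. Chance alone sets a rat apart in about 1 in 20 groups.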

How the results depend on the processing

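No paired analysis was possible because the diets share no rat numbers. The number of genes with an adjusted p under 0.05 was 0 in every setting tried. With an unadjusted p under 0.05 there were 132 genes in 12 rats, 254 without the filter, 474 with the library set as a covariate and 670 with it and without rat 6, 85 in DESeq2 and 279 in DESeq2 without rat 6, and from 85 to 214 with 1 rat left out (85 without rat 12 and without rat 17, 87 without rat 1, 214 without rat 5). The log2 fold change of Il33, -0.07 in 12 rats, was 0.020 with the library set as a covariate, 0.012 with it and without rat 6, and -0.24 to 0.080 with 1 rat left out. In the same settings that of Il18 ran from -0.012 to 0.24 and that of Pycard from -0.13 to 0.11, so that these 3 genes had no stable direction. That of Il1rl2 ran from -1.28 to -1.03 in the 9 of 12 settings in which it passed the filter. It did not pass without blast-boldine rat 35, blast-control rat 1 or blast-control rat 7. The range leaves these settings out and cannot show that the value is stable. Il1rl2 was picked on this contrast, so that its range is a description and carries no test. Differences of mean log2 CPM depended on rat 6, and without it turned from 0.10 to -0.12 for Il33, from 0.40 to -0.28 for Il1rl1, from 0.73 to -0.028 for Pycard and from 0.36 to -0.39 for Casp1. For Il1r1 the exact permutation p was 0.0498 with rat 6 and 0.0996 without it. Within library sets the exact permutation p was 0.07 with rat 6 and 0.105 without it. Rat 6 held 0 counts of Il1r1, Il1rl1, Pycard and Casp1 at 15.8 CPM per count, and the causes of the other shifts were not tested.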
